A study of Oryctolagus cuniculus with 20 samples.

Results

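Smooth muscle and cytoplasmic actin genes were followed in rabbit jaw-joint cartilage over 8 weeks of joint derangement. They were represented by 10 of the 43603 probes on the array, under 4 names (TAGLN, ACTA2, ACT-5 and D17403). On the whole array 852 genes could be named. Probes were taken by name, as TAGLN, ACTA2 or gamma-actin in the array files, and the genes were selected on their processed signal across the 5 groups. Their levels are therefore given as a description, with no test. By symbol, 1 probe matched TAGLN. ACTA2 was matched by 1 probe through its RefSeq accession, and 0 probes carried the name ACTG1. Gamma-actin was instead represented by 3 probes named ACT-5, which the array describes as gamma non-muscle actin, and by 5 probes named D17403, which it describes as the gamma-actin 3′ untranslated region. The RefSeq table of rabbit genes (assembly mOryCun1.1) gives the accession of the ACT-5 probes the symbol ACTB, the beta-actin gene, with ACT-5 as a synonym. Which cytoplasmic actin the ACT-5 probes report is therefore not settled, and they are called ACT-5 throughout.

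Actin filaments are built from closely related isoforms. Alpha smooth muscle actin, the product of ACTA2, is the contractile isoform of vascular smooth muscle, pericytes and myofibroblasts, and transgelin (SM22), the product of TAGLN, is a small protein that binds and cross-links these filaments. Both genes are classical targets of serum response factor and its myocardin-family coactivators, and TGF-beta raises both in mesenchymal cells. Beta- and gamma-actin form the cytoskeleton of almost every cell and are often used as reference genes.

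The tissue was condylar cartilage of the temporomandibular joint, the cartilage on the head of the jaw bone, from male rabbits 6 months old. In 16 rabbits the left joint had internal derangement (ID), sampled at 1, 2, 4 or 8 weeks with 4 arrays at each time, and 4 arrays came from a control group of 4 untreated rabbits that serves every time. The labels give no strain, no sham group and no link from single arrays to single rabbits, so the procedure and the derangement cannot be told apart, and p-values measure the spread between arrays. Each array was hybridised with Cy3-labelled RNA and each level below is log2 intensity relative to the 75th percentile of its own array, so that 0 marks a probe at that percentile.

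Several properties of the arrays touch the results. Each group lay on a slide of its own, so slide and group cannot be told apart. The file headers put the control and 2-week arrays on one scan day and the 1-, 4- and 8-week arrays on another. Overall signal differed between arrays, with 75th percentiles of 174.1 (replicate 4 of the 1-week group) to 642.9. The 5 measured chondrocyte markers (COL2A1, ACAN, SOX9, CNMD and COL10A1) had a summed level between 7.32 and 11.74 over the 20 arrays, so the defining transcripts of the labelled tissue were present on every array. Of 11 smooth muscle and mural cell markers only MYLK was measured. MYH11 was on the array but not above background on 3 of 4 arrays of any group, and CNN1, DES and ACTG2 were not found by name. Skeletal muscle RNA varied most among the controls. The summed level of 16 skeletal muscle markers was 0.29 to 2.34 on the 16 arrays of deranged joints, against 6.88, 9.20, 3.62 and 2.61 on control replicates 1 to 4. All 10 actin and transgelin probes were well above background on 20 of 20 arrays, and none was saturated.

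The probes for the smooth muscle genes are shown because the values below rest on these few sequences. The TAGLN probe starts at base 153 of its transcript record. A pair of further probes, found through a shared transcript, starts at bases 344 and 454 of another record. Capitals mark the longest run, of 10 bases, that the TAGLN probe shares with one of them, and they share none longer, so that the 3 probes read largely separate stretches.
TAGLN A_04_P029307: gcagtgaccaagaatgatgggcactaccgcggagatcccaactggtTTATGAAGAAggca
TAGLN transcript A_04_P004736: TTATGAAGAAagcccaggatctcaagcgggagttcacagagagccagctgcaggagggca
TAGLN transcript A_04_P016636: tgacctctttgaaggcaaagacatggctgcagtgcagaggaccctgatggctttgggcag
ACTA2 A_04_P001711: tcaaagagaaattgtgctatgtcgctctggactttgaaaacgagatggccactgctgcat

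TAGLN was lowest at 4 weeks. Its level was 0.13, -0.17, 0.10 and -0.94 on the 4 arrays at 1 week, 0.51, -0.54, 0.03 and -0.89 at 2 weeks, and -0.61, -2.84, -2.00 and -1.43 at 4 weeks. At 8 weeks it was 0.57, -0.93, -0.92 and -0.25, against -0.00, 0.63, -0.19 and -0.71 in untreated controls. Of the 4-week arrays, 3 lay below every control array and below every 1-week array, and only replicate 1 reached into the range of the other groups. Group means were -0.22 ± 0.50 at 1 week, -0.22 ± 0.62 at 2 weeks, -1.72 ± 0.94 at 4 weeks, -0.38 ± 0.71 at 8 weeks and -0.07 ± 0.55 in controls (SD, n = 4 each). The order from low to high was thus 4 weeks, 8 weeks, 1 and 2 weeks, and control. Apart from 4 weeks, the means spanned -0.38 to -0.07, less than the SD within any of these groups, so that their order is not resolved.

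**Figure D1:**
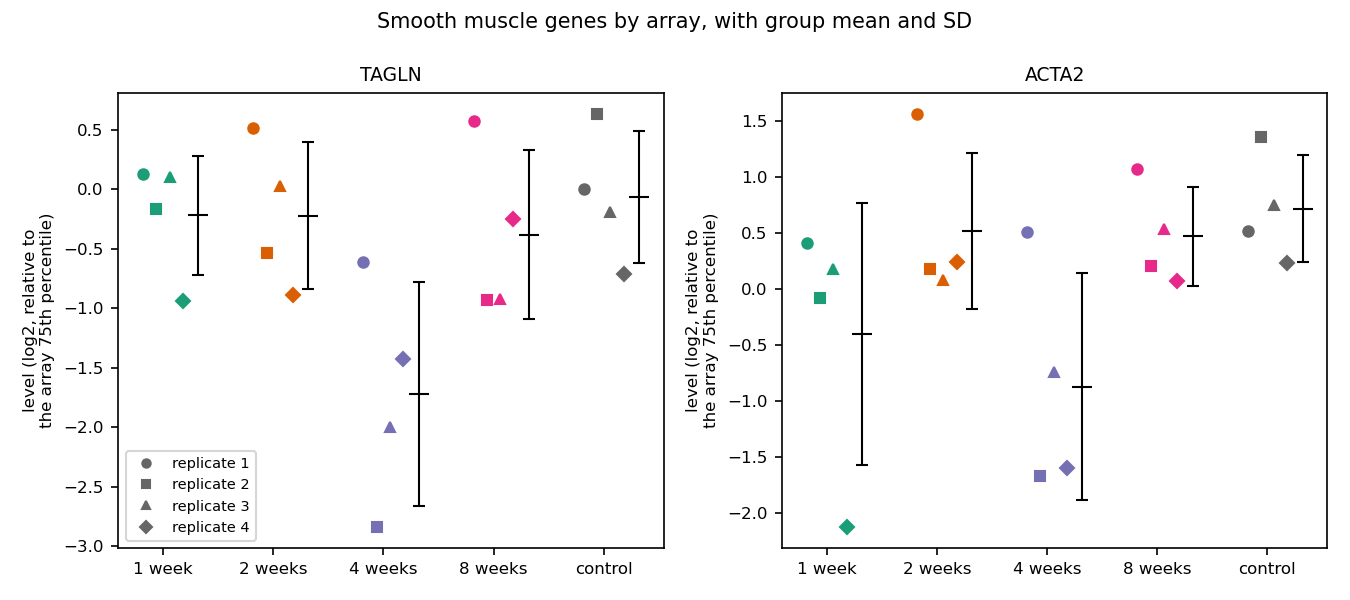
Levels of TAGLN and ACTA2 (log2, relative to each array's 75th percentile) on each of the 20 arrays, by weeks after derangement with untreated controls at the right. Symbols mark replicates, and the bar beside each group is the mean ± SD (n = 4). For TAGLN, 3 of the 4-week arrays lie at -2.84 to -1.43, below all 4 control arrays. For ACTA2, 1-week replicate 4 stands at -2.13, below all 4 of the 4-week arrays.

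Relative to control, TAGLN differed by -1.65 ± 0.45 at 4 weeks on the log2 scale, 0.319 of the control level, and by -0.15 ± 0.45 at 1 week, -0.15 ± 0.45 at 2 weeks and -0.32 ± 0.45 at 8 weeks (SE of the fit over all arrays). The 4-week difference was larger than the SD within either group, whereas those at 1, 2 and 8 weeks were smaller. The control and the 4-week arrays belong to separate scan days. Within the later scan day, TAGLN differed by -1.50 ± 0.45 between 4 weeks and 1 week and by 1.33 ± 0.45 between 8 weeks and 4 weeks. These groups lay on separate slides, so slide and time cannot be told apart in these values. The lower level at 4 weeks could come from fewer cells of a type or from less RNA per cell, which bulk arrays cannot tell apart. At 1 and 2 weeks the direction was not settled, since the difference ranged from -0.36 to 0.23 at 1 week and from -0.40 to 0.23 at 2 weeks over all alternatives, and turned positive without 1-week replicate 4 (0.09) or without control replicate 2 (0.08 at 2 weeks). At 8 weeks it ranged from -0.63 to 0.07 and turned positive without the 2 control arrays of most muscle.

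The other 2 probes on the TAGLN transcript gave the same picture. Their 4-week differences from control were -1.68 ± 0.46 and -1.65 ± 0.43, and those at 1, 2 and 8 weeks ran from -0.38 to 0.01. Over the 20 arrays their levels followed the TAGLN probe with Pearson's r of 0.99 and 1.00 (Spearman's rho 0.98 and 0.99). These are readings of the same RNA on the same arrays, so they bear on the probe and are no further replicates.

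ACTA2 was also lowest at 4 weeks, with more scatter. Its level was 0.41, -0.08, 0.18 and -2.13 at 1 week, 1.56, 0.18, 0.08 and 0.24 at 2 weeks, and 0.51, -1.67, -0.74 and -1.60 at 4 weeks. At 8 weeks it was 1.07, 0.20, 0.53 and 0.07, against 0.52, 1.36, 0.75 and 0.23 in controls. Replicates 2, 3 and 4 of the 4-week group lay below every control array, as did replicates 2, 3 and 4 of the 1-week group, and replicate 1 of the 4-week group lay inside the control range. Means were -0.40 ± 1.17 at 1 week, 0.52 ± 0.70 at 2 weeks, -0.87 ± 1.02 at 4 weeks, 0.47 ± 0.45 at 8 weeks and 0.72 ± 0.48 in controls (SD, n = 4 each).

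Relative to control, ACTA2 differed by -1.59 ± 0.54 at 4 weeks (0.332 of the control level) and by -1.12 ± 0.54 at 1 week, against -0.20 ± 0.54 at 2 weeks and -0.25 ± 0.54 at 8 weeks (log2 scale, SE). The 2-week direction turned without control replicate 2 (0.02). Only the 4-week difference exceeded the larger of the SDs within the groups compared. The 1-week value rested largely on replicate 4, the array of lowest signal, and was -0.55 without it. Among arrays of the later scan day ACTA2 differed by 1.34 ± 0.54 between 8 weeks and 4 weeks, but by -0.47 ± 0.54 between 4 weeks and 1 week, and by -1.04 once 1-week replicate 4 was left out. Between 8 weeks and 1 week it differed by 0.87 ± 0.54, and by 0.30 without that array.

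The transgelin and alpha smooth muscle actin probes moved together from array to array. Pearson's r over the 20 arrays was 0.76 and Spearman's rho 0.65, and r was 0.77 after the 2 arrays farthest from the ACTA2 median were left out. After the group means had been subtracted r was still 0.75, so the shared variation was present within groups as well as between them. In each of the 4 derangement groups, replicate 1 had the highest level of both genes. All points share 20 arrays and their scaling, and the correlation is given as a description.

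**Figure D2:**
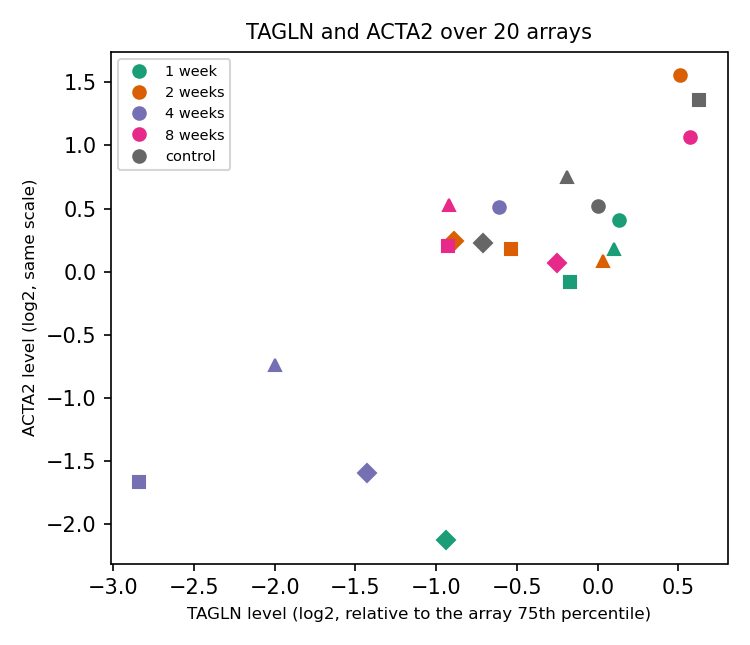
TAGLN level (x axis) against ACTA2 level (y axis), both log2 relative to the array's 75th percentile, for 20 arrays coloured by group. The points follow a rising band (Pearson's r = 0.76), with 3 of the 4-week arrays and 1-week replicate 4 at the low end of ACTA2.

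Markers of other cell types were set beside these levels. The summed chondrocyte level was 9.27 to 11.74 at 1 week, 7.79 to 9.19 at 2 weeks, 9.68 to 10.86 at 4 weeks and 7.32 to 10.01 at 8 weeks, against 8.65 to 9.66 in controls. Over the 20 arrays it correlated with ACTA2 at r = -0.63 (-0.57 without its 2 most extreme arrays) and with TAGLN at r = -0.27 (-0.38 without them). All 4 of the 4-week arrays thus exceeded every control array in summed chondrocyte level. The summed level of 5 endothelial markers was 0.79 to 1.35 at 1 week, 1.07 to 2.03 at 2 weeks, 1.08 to 1.20 at 4 weeks and 1.28 to 1.54 at 8 weeks, against 0.90 to 1.68 in controls, with r of 0.35 for ACTA2 and 0.11 for TAGLN. The 4 measured macrophage markers summed to 0.99 to 2.07 at 4 weeks, against 2.41 to 3.12 in controls, and correlated with ACTA2 at r = 0.58 and with TAGLN at r = 0.40. Skeletal muscle level correlated with ACTA2 at r = 0.35 and with TAGLN at r = 0.36, and these fell to 0.13 and 0.10 without the 2 arrays of most muscle. The 4-week differences were -1.27 for TAGLN and -1.37 for ACTA2 without those 2 control arrays. The part of chondrocyte, endothelial or macrophage content in either gene's level was not tested.

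Levels of the ACT-5 probes near the 3′ end and of the D17403 probes varied less within groups than those of TAGLN and ACTA2. The ACT-5 probe near the 3′ end with the higher mean (A_04_P001717) had levels of 8.45, 9.01, 8.64 and 9.02 at 1 week, 8.81, 9.01, 8.80 and 9.04 at 2 weeks, and 8.57, 8.59, 8.30 and 8.47 at 4 weeks. At 8 weeks they were 8.85, 8.65, 8.76 and 8.55, against 8.70, 8.82, 8.94 and 8.83 in controls. All 4 of the 4-week arrays lay below all 4 control arrays, and the other groups overlapped the controls. Means were 8.78 ± 0.28, 8.91 ± 0.13, 8.48 ± 0.13 and 8.70 ± 0.13 at 1, 2, 4 and 8 weeks, against 8.82 ± 0.09 in controls (SD, n = 4 each).

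The difference from control was -0.34 ± 0.13 at 4 weeks, 0.790 of the control level, and -0.04 ± 0.13, 0.09 ± 0.13 and -0.12 ± 0.13 at 1, 2 and 8 weeks (log2 scale, SE). The second ACT-5 probe at that end, shifted by 1 base and sharing 59 bases, gave -0.31 ± 0.12 at 4 weeks. At 4 weeks the value depended on the scaling, from -0.47 with arrays centred on the median to -0.22 with quantile normalization and -0.20 with normexp background correction. At 1 week, 2 weeks and 8 weeks the direction changed with the alternative. The summed level of 4 fibroblast markers was 10.03 to 10.31 at 4 weeks, against 10.39 to 10.59 in controls, and correlated with this probe at r = 0.89, and its part in the difference was not tested. Centring on the median shifted the median difference of all 26928 kept probes to -0.12 at 1 week, 0.05 at 2 weeks, -0.10 at 4 weeks and -0.12 at 8 weeks, against 0.03, 0.04, 0.03 and 0.04 as scaled here.

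The third ACT-5 probe lies upstream, starting at base 426 of its transcript record, and its levels did not follow those of the 3′ probes. The upstream probe had levels of 3.96, 3.57, 3.91 and 3.27 at 1 week, 4.05, 3.69, 3.96 and 4.04 at 2 weeks, and 3.70, 3.72, 3.65 and 3.74 at 4 weeks. At 8 weeks they were 4.11, 3.75, 3.76 and 3.98, against 4.38, 6.02, 3.97 and 3.80 in controls. Control replicate 2 stood far above every other array, and it was also the array with the highest skeletal muscle level, followed in both by control replicate 1. The difference from control was -0.86 ± 0.33, -0.60 ± 0.33, -0.84 ± 0.33 and -0.64 ± 0.33 at 1, 2, 4 and 8 weeks (log2 scale, SE). Without control replicate 2 these became -0.37, -0.11, -0.34 and -0.15, and without both muscle-rich control arrays -0.20, 0.06, -0.18 and 0.02.

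This probe lists, beside the ACT-5 record, a transcript that 3 other probes of the array share and that is described there as alpha-actin. Over the 20 arrays it followed one of them (A_04_P012261) with r = 0.98 and rho = 0.87, against r = 0.05 and rho = 0.08 for the ACT-5 3′ probe. The named genes closest to it among the 636 with a kept probe all belong to striated muscle. They were ENO3, muscle enolase (r = 0.91), MYL11, a fast myosin light chain (r = 0.88), ACTA1, skeletal alpha-actin (r = 0.86), CASQ2, a calcium-storage protein (r = 0.84), and MYOZ1, a Z-disc protein (r = 0.83). With the group means subtracted these correlations were 0.75 to 0.90. Its correlation with the summed skeletal muscle level was 0.83, but only 0.15 without the 2 arrays farthest from the median of that sum, so the relation rests on those control arrays. A probe that the array describes as beta-actin (LOC100008822, A_04_P015241) was likewise high in muscle-rich controls, with -0.01, 3.52, -2.60 and -3.46 on control replicates 1 to 4.

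**Figure D3:**
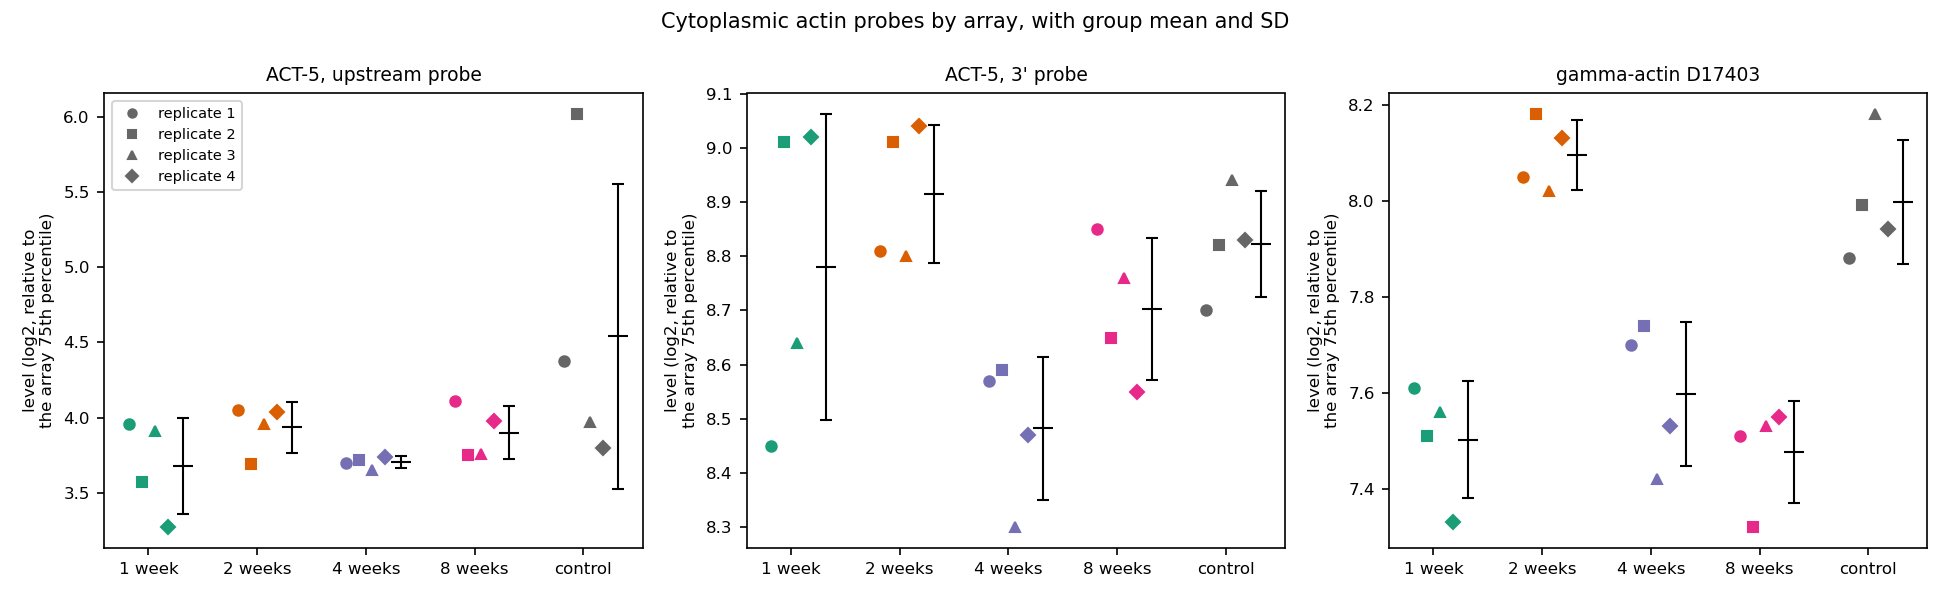
Levels (log2, relative to each array's 75th percentile) of the upstream ACT-5 probe, the ACT-5 3′ probe and D17403 probe A_04_P013120 on 20 arrays, by weeks after derangement with untreated controls at the right, with mean ± SD (n = 4) beside each group. The y axes differ. The upstream probe is highest on control replicate 2 (6.02), the 3′ probe is lowest at 4 weeks (8.30 to 8.59), and D17403 is lower at 1, 4 and 8 weeks (7.32 to 7.74) than at 2 weeks and in controls (7.88 to 8.18).

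Gamma-actin measured through D17403 was lower than in control at 1, 4 and 8 weeks. The probe of highest level (A_04_P013120) had levels of 7.61, 7.51, 7.56 and 7.33 at 1 week, 8.05, 8.18, 8.02 and 8.13 at 2 weeks, and 7.70, 7.74, 7.42 and 7.53 at 4 weeks. At 8 weeks they were 7.51, 7.32, 7.53 and 7.55, against 7.88, 7.99, 8.18 and 7.94 in controls. No array of 1, 4 or 8 weeks reached the lowest control array, whereas the 2-week arrays overlapped the controls. The 2 high groups are those of the first scan day and the 3 low groups those of the second, so scan day and time cannot be told apart in these 3 differences. They were -0.50 ± 0.10 at 1 week, -0.40 ± 0.10 at 4 weeks and -0.52 ± 0.10 at 8 weeks, with 0.10 ± 0.10 at 2 weeks (log2 scale, SE), or 0.709, 0.758 and 0.696 of the control level at the first 3 and 1.07 at 2 weeks.

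The D17403 probes tile the last bases of the message and overlap each other by 49 to 59 bases. A further 5 probes, named DN889915, list D17403 among their records and lie just upstream. The end of the outermost D17403 probe is shown. The size of the difference varied with how far a probe ran past the hexamer AATAAA, the usual polyadenylation signal. Only the last 30 bases are printed and capitals mark the hexamer. The same stretch of an ACT-5 3′ probe is shown beside it.
D17403 A_04_P013116: ggagaAATAAAagagctgagttcaccttta
ACT-5 A_04_P001716: cAATAAAagtgcacacctgaacacaaaaaa

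At 1 week the difference from control was -0.74 ± 0.09 for the probe that ran 19 bases past the hexamer, and -0.72, -0.72, -0.65 and -0.50 for those that ran 11, 10, 9 and 8 bases past it. It was -0.34 for the DN889915 probe that ended 1 base past it. For the 4 DN889915 probes that ended before the hexamer the difference was -0.11 to -0.17. The 8-week group gave the same grading, from -0.76 at 19 bases past to -0.38 at 1 base past and -0.12 to -0.20 before the hexamer. At 4 weeks the range was narrower, from -0.38 to -0.40 for the probes that ran past it and from -0.21 to -0.28 for those that did not. At 2 weeks the 10 probes lay between 0.08 and 0.13. Probe brightness also varied with position. The control mean was 6.82 at 19 bases past, 7.50 to 7.56 at 9 to 11 and 8.00 at 8. It was 8.73 at 1 base past and 8.62 to 8.69 before the hexamer. Position and brightness therefore cannot be told apart in this grading.

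The grading also appeared between groups scanned on the same day, which lay on separate slides. Between 4 weeks and 1 week the outermost probe differed by 0.35 ± 0.09, and the DN889915 probes that ended before the hexamer by -0.13 to -0.09. Between 8 weeks and 4 weeks these values were -0.36 ± 0.09 and 0.06 to 0.11. The direction for gamma-actin between these times therefore depended on which probe was read. The 8-week group differed from the 1-week group by -0.04 to 0.05 over all 10 probes.

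**Figure D4:**
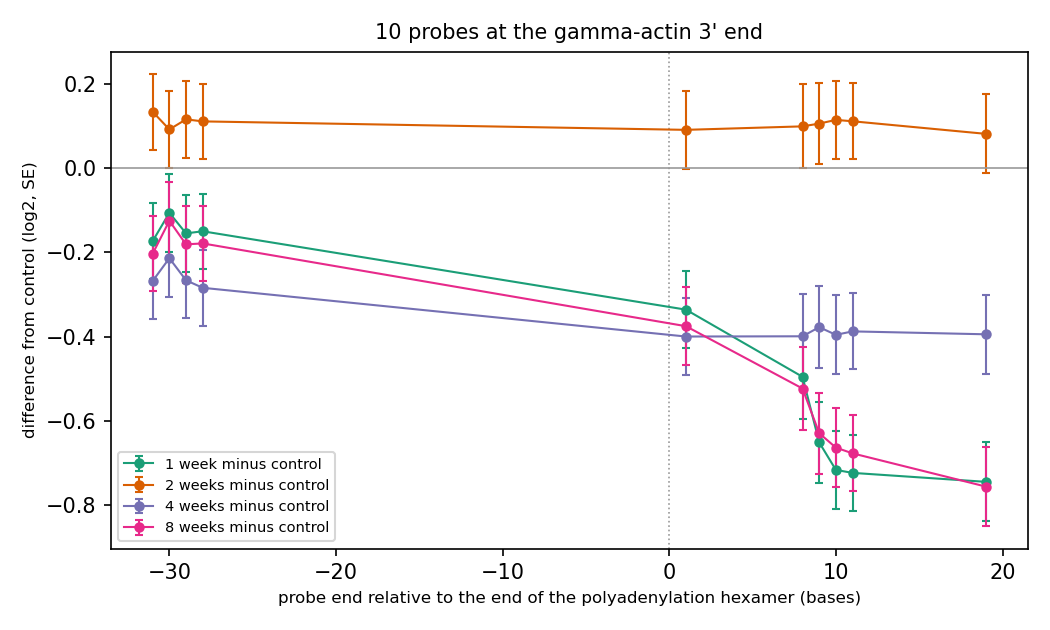
Difference from control (log2, ± SE) of 10 probes at the gamma-actin 3′ end, plotted against the position of the probe's end relative to the end of the polyadenylation hexamer AATAAA (bases, negative before it). The 1-week and 8-week lines descend from about -0.11 to -0.20 before the hexamer to -0.74 and -0.76 at 19 bases past it. The 4-week line runs from -0.21 to -0.40, and the 2-week line stays between 0.08 and 0.13.

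The ACT-5 3′ probes also run past a hexamer, by 22 and 23 bases, and differed from control by -0.04 and -0.01 at 1 week. These probes lie 1 base apart and neither ends at or before the hexamer, so a grading by position could not be examined there. Of all 43603 probes, 3.99% hold AATAAA in the printed orientation and 6.67% hold it or its reverse complement TTTATT. Among the 434 kept probes with 8 to 19 bases after their last AATAAA, the median difference from control was -0.15 at 1 week, 0.06 at 2 weeks, -0.15 at 4 weeks and -0.14 at 8 weeks. It was -0.12, 0.07, -0.12 and -0.09 for the 201 probes with 0 to 7 bases after it, and -0.03, 0.04, -0.02 and -0.00 for the 565 with 20 to 54 bases. Over all kept probes the medians thus did not grow steadily with the distance past the hexamer. The median share of G and C bases was 41.7% for 20 to 54 bases, against 38.3% for 0 to 7 and for 8 to 19. Distance and base composition therefore cannot be told apart in these medians. Among the 25728 kept probes without the hexamer these medians were 0.03, 0.04, 0.04 and 0.05. The probes with 8 to 19 bases after the hexamer hold fewer G and C bases than those without it, with a median of 38.3% against 43.3%, and the difference of all probes from control varied with that share. For the D17403 probes, at 45% G and C, the 13167 kept probes within 2.5 percentage points had medians of 0.07, 0.04, 0.04 and 0.08 at 1, 2, 4 and 8 weeks.

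Groups that do not overlap were frequent on these arrays, which sets a background for the counts above. Of the 10 probes chosen, 5 did not overlap control at 1 week, against 16.8% of all kept probes. At 2 weeks 0 of 10 did not overlap, against 5.71%. At 4 weeks 8 of 10 did not, against 17.8%, and at 8 weeks 5 of 10, against 22.5%. The 5 at 1 and 8 weeks are the 5 overlapping D17403 probes. Between 4 weeks and 1 week 4 of 10 did not overlap, against 6.46%, and between 8 and 4 weeks 5 of 10, against 12%. Between 8 weeks and 1 week 0 of 10 did not, against 8.04%. These contrasts were used to choose the genes, and the 3 ACT-5 and 5 D17403 probes share their targets.

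By the likeness of their levels over the 20 arrays, the genes nearest to TAGLN were PSAT1, an enzyme of serine synthesis (r = 0.73), ASIP, agouti signalling protein (r = 0.72), TACC3, a mitotic spindle protein (r = 0.71), SLC7A8, an amino acid transporter (r = 0.69), and CCNA2, cyclin A2 (r = 0.68). With group means subtracted they correlated at 0.63, 0.51, 0.55, 0.33 and 0.60. Nearest to ACTA2 were CCNA2 (r = 0.84), ABCC9, a subunit of ATP-sensitive potassium channels (r = 0.83), FMO1, a monooxygenase (r = 0.80), TACC3 (r = 0.77) and MMP11, a metalloproteinase (r = 0.76), at 0.61 to 0.74 within groups. CCNA2 and TACC3 were among the nearest 5 for both. Nearest to the ACT-5 3′ probe were COL1A2, a chain of type I collagen (r = 0.88), ROCK1, one of the listed actin regulators (r = 0.88), and PTGER2, a prostaglandin E2 receptor (r = 0.80). RPL23, a ribosomal protein (r = 0.80), and CALR, calreticulin (r = 0.76), came next, and all of these correlated at 0.57 to 0.91 within groups. D17403 was nearest to HNRNPC (r = 0.82), DHRS4, NASP, PPP2R5C and EEF1B2 (r = 0.79), and these fell to 0.15 to 0.47 within groups, so that likeness lay mostly in the difference between group means. These genes were picked as the nearest of 636, over 20 arrays that share their scaling, and the values describe the arrays only.

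Other genes of the contractile apparatus were tested in the same limma fit, with Benjamini-Hochberg adjustment over all kept probes. That fit called 3729 probes at 1 week against control (13.8%, with 2626 or 9.75% higher and 1103 or 4.1% lower, and 1851 and 1887 with median centring), 123 at 2 weeks (0.457%), 2303 at 4 weeks (8.55%, with 1726 or 6.41% higher and 577 or 2.14% lower, and 1321 and 1160 with that centring), and 3435 at 8 weeks (12.8%, with 2293 or 8.52% higher and 1142 or 4.24% lower, and 1413 and 2207 with it). The 2-week arrays share their scan day with the controls, and the 1-, 4- and 8-week arrays do not. Scan day and time therefore cannot be told apart in these counts, nor in the calls against control at 1, 4 and 8 weeks below. Of 33 listed contractile genes only TPM1, TPM2, CALD1 and MYLK were measured. At 1 week 2 of the 4 fell, TPM1 and TPM2. At 4 weeks TPM1 alone fell, at 8 weeks TPM2 alone, and at 2 weeks 0 of 4 changed. The median difference of the 4 genes was -0.67, -0.26, -0.53 and -0.46 at 1, 2, 4 and 8 weeks, beside 0.03, 0.04, 0.03 and 0.04 over all kept probes.

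TPM1, a tropomyosin of smooth, striated and non-muscle cells, averaged 3.17 ± 0.23 at 1 week, 3.91 ± 0.24 at 2 weeks, 3.47 ± 0.40 at 4 weeks and 3.86 ± 0.31 at 8 weeks, against 4.45 ± 0.67 in controls (SD, n = 4 each). It fell by 1.29 at 1 week (limma adjusted p = 0.00415) and by 0.98 at 4 weeks (limma adjusted p = 0.0327), on the log2 scale. The 4-week call was lost without the 2 muscle-rich control arrays, where the difference was -0.60, and the 1-week call was kept at -0.90. All 7 kept probes of TPM1 were lower at both times, and 7 passed the test at 1 week and 6 at 4 weeks. TPM2, beta-tropomyosin, averaged -3.24 ± 0.66 at 1 week and -3.90 ± 0.52 at 8 weeks, against -2.08 ± 0.38 in controls. It fell by 1.16 at 1 week (limma adjusted p = 0.0206) and by 1.82 at 8 weeks (limma adjusted p = 0.00105). Without those 2 arrays the 1-week call was lost at -0.92 and the 8-week difference was -1.57.

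Caldesmon and myosin light chain kinase, which regulate smooth muscle contraction, did not pass the test. CALD1 differed from control by -0.14 ± 0.13, 0.03 ± 0.13, -0.23 ± 0.13 and -0.33 ± 0.13 at 1, 2, 4 and 8 weeks (log2 scale, SE, lowest limma adjusted p = 0.0963). MYLK differed by -0.17 ± 0.26, 0.25 ± 0.26, -0.34 ± 0.26 and -0.28 ± 0.26, and 1 of its 4 kept probes had the opposite sign at 1, 4 and 8 weeks. Like TAGLN, MYLK had its lowest array in 4-week replicate 2, at 1.85. The 4-week dip of -1.65 in TAGLN and -1.59 in ACTA2 thus stands beside differences of -0.98 in TPM1, -0.73 in TPM2, -0.34 in MYLK and -0.23 in CALD1.

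The ACT-5 probes, the probes sharing the alpha-actin transcript and the beta-actin probe were kept out of the gene lists. ACTB was therefore not counted among the listed genes. Of the 8 listed actins, only skeletal alpha-actin, ACTA1, was then measured by name. It was well above background on 0 arrays at 4 weeks, against 3 control arrays, and was at least 4.09-fold lower at 4 weeks (means -4.35 and -2.32, limma adjusted p = 0.027). It fell by 2.49 at 1 week and by 2.10 at 8 weeks (limma adjusted p = 0.00495 and 0.0169). Without the 2 muscle-rich control arrays its differences were -1.36, -0.90 and -0.97 at 1, 4 and 8 weeks, and the calls at 4 and 8 weeks were lost. The 4-week call was also lost without control replicate 1 or any of 4-week replicates 2, 3 and 4. With ACTA1 counted, 12 of 16 skeletal muscle markers fell at 1 week, 8 of 16 at 2 weeks, 13 of 16 at 4 weeks and 15 of 16 at 8 weeks. Of all kept probes, 4.1%, 2.14% and 4.24% were called lower at 1, 4 and 8 weeks. At 2 weeks 0.457% were called in either direction. MYH7, a slow myosin heavy chain, was above background on 0 arrays at 2, 4 or 8 weeks, against all 4 control arrays, and was at least 63.3-fold, 71.7-fold and 60.8-fold lower there than in control. These folds rest on all 4 controls. Without the 2 muscle-rich control arrays the MYH7 differences were -4.74, -4.82 and -4.58 on the log2 scale, and the calls were kept. The 2-week MYH7 call was lost with normexp background and with only the 2 groups compared, which are also the arrays of a single scan day. TNNC2, fast troponin C, fell, with differences of -5.37, -6.29, -7.11 and -6.99 at 1, 2, 4 and 8 weeks on the log2 scale (limma adjusted p of 0.0129 or less). Without the 2 muscle-rich control arrays these were -2.78, -3.70, -4.52 and -4.40, and the calls were kept. The TNNC2 calls at 1 and 2 weeks were lost with normexp background and with only the 2 groups compared. That at 2 weeks was also lost without control replicate 1 or 2-week replicate 2. TTN, titin, was called lower at 1 and 8 weeks on its probe of highest mean. The fall was at least 12.5-fold at 1 week, where 0 arrays were above background. Both calls were lost without those 2 control arrays. All 4 kept TTN probes were lower at each time, and 3, 1, 3 and 4 of them were called at 1, 2, 4 and 8 weeks. The levels of TAGLN and ACTA2 overlapped those of control at each of the 4 times.

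Of 45 listed actin-binding proteins and regulators 6 were measured (EZR, ITGB1, MYH10, RAC1, RHOA and ROCK1). At 1 week 9.75% of all kept probes were called higher. RAC1, a small GTPase that drives actin assembly at the cell edge, was the one called, 0.58 ± 0.17 higher at 1 week (limma adjusted p = 0.0353). That call was lost under 10 of 29 alternatives, with adjusted p up to 0.272. EZR, a linker of actin to the membrane, differed by 0.29 ± 0.39, -0.10 ± 0.39, 0.73 ± 0.39 and 0.28 ± 0.39 at 1, 2, 4 and 8 weeks. ITGB1, an integrin chain, differed by -0.30 to -0.15 on its probe of highest mean, but only 6, 7, 4 and 2 of its 11 kept probes had that sign at 1, 2, 4 and 8 weeks. ROCK1 differed by -0.29 to 0.06, with 4, 4, 2 and 2 of its 5 kept probes of the same sign as the one given. Neither passed the test.

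The TGF-beta and BMP list had 7 measured genes of 24, of which 0 were called at any time against control. Over all kept probes 13.8%, 0.457%, 8.55% and 12.8% were called at 1, 2, 4 and 8 weeks. CCN2, a matricellular target of TGF-beta, differed by 1.19 ± 0.43 at 1 week and by 1.21 ± 0.43 at 4 weeks, with limma adjusted p of 0.076 and 0.094. TGFB1 differed by 0.07 ± 0.20, 0.20 ± 0.20, 0.18 ± 0.20 and 0.56 ± 0.20, and TGFB2 by 0.29 ± 0.26, -0.12 ± 0.26, 0.05 ± 0.26 and -0.38 ± 0.26, at 1, 2, 4 and 8 weeks. The median over the 7 genes was 0.13, 0.20, 0.18 and 0.12.

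Of 17 fibrous and myofibroblast matrix genes 9 were measured, and 1 changed. Over all kept probes 4.1%, 2.14% and 4.24% were called lower at 1, 4 and 8 weeks. LUM, lumican, a proteoglycan of fibrous tissue, fell, with differences of -1.33 at 1 week, -1.14 at 4 weeks and -1.19 at 8 weeks (limma adjusted p = 0.0106, 0.0356 and 0.0222). Each of these calls was lost without the 2 muscle-rich control arrays. BGN, biglycan, differed by 0.59, 0.22, 0.36 and 0.70 (SE 0.27), FN1, fibronectin, by -0.57, -0.55, -0.49 and -0.24 (SE 0.23), and DCN, decorin, by -0.90, 0.20, -0.31 and -0.20 (SE 0.43) at 1, 2, 4 and 8 weeks, and these were not called. Of the 14 kept FN1 probes, 14, 14, 11 and 13 had the sign given, and at 4 weeks they ran from -0.49 to 0.08. Among 4 measured reference genes (GAPDH, HPRT1, PPIA and EEF1A1) 0 were called, with ACTB kept out of that list as well. At 4 weeks GAPDH differed by -0.08 ± 0.23, PPIA by -0.14 ± 0.11, EEF1A1 by 0.13 ± 0.10 and HPRT1 by -0.41 ± 0.17, beside -0.34 ± 0.13 for the ACT-5 3′ probe.

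**Figure D5:**
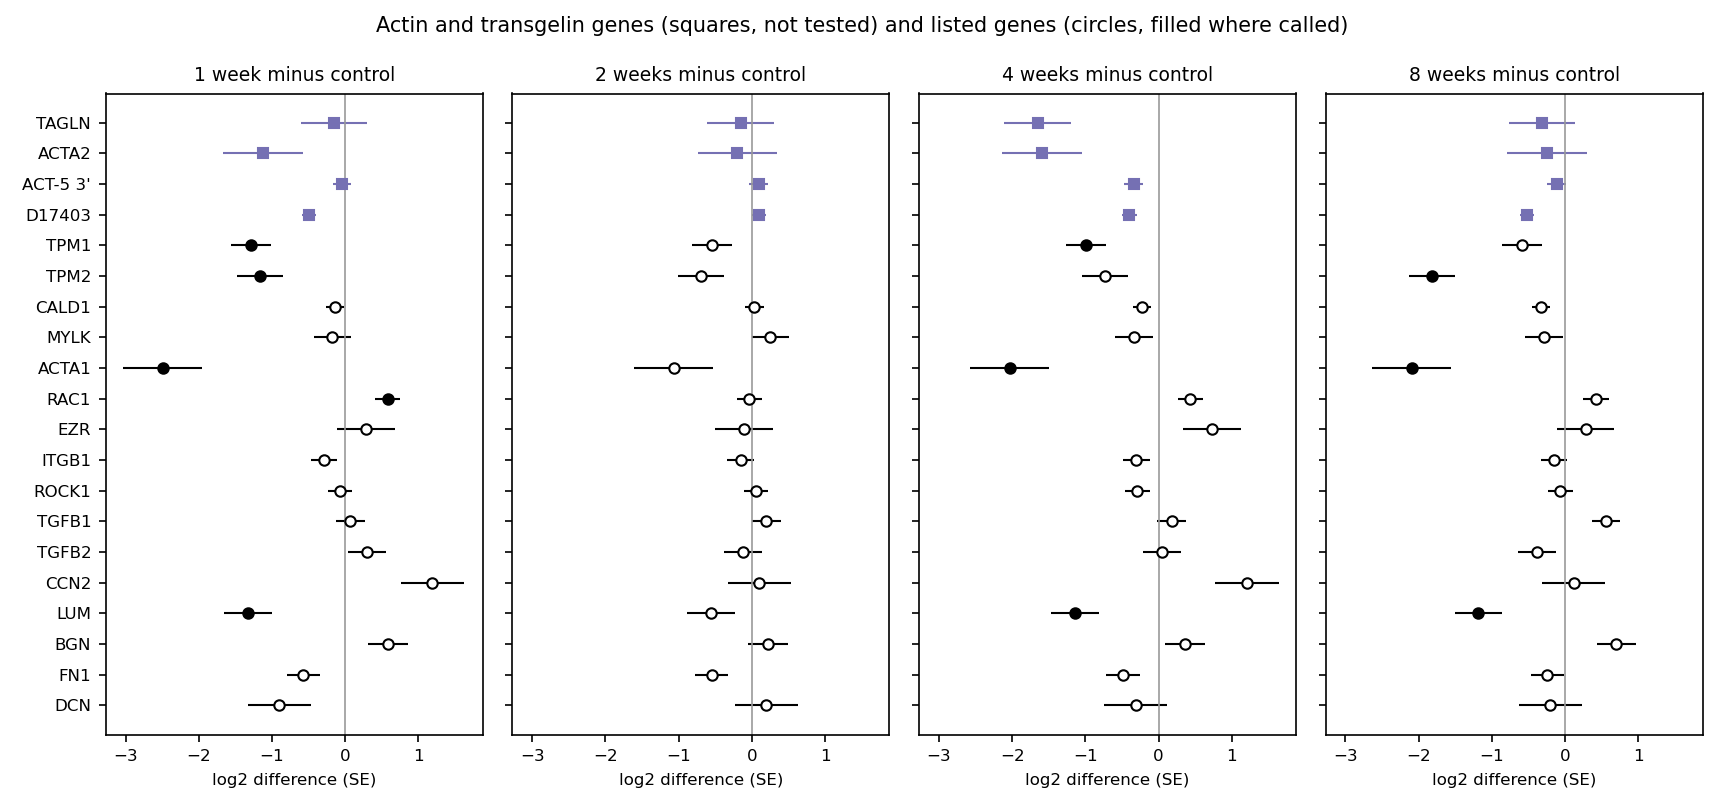
Differences from control (log2, ± SE) at 1, 2, 4 and 8 weeks of TAGLN, ACTA2, the ACT-5 3′ probe and D17403 (squares, not tested) and of listed genes (circles, filled where limma's adjusted p was under 0.05). TAGLN and ACTA2 lie farther left at 4 weeks (-1.65 and -1.59) than at the other times, and TPM1, TPM2, ACTA1 and LUM are the lower calls.

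Between times on the later scan day, the fit called 289 probes between 4 weeks and 1 week (1.07%), 151 between 8 and 4 weeks (0.561%) and 4 between 8 weeks and 1 week (0.0149%). None of the measured genes of the contractile, actin family, actin-binding, TGF-beta and BMP, matrix and reference lists was among them. TPM1 differed by 0.30, 0.39 and 0.69 (SE 0.27) and TPM2 by 0.44, -1.09 and -0.65 (SE 0.32) in these 3 comparisons.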

How the data were processed

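Values were deposited as one-colour intensity, the processed signal of each spot in linear units. Per the file headers, Agilent's Feature Extraction software, version 10.7.1.1, made them with the protocol GE1_107_Sep09. It corrects for background and gives low spots a small positive surrogate. The authors' value table, also intensity, equalled the scanner values, except that the 4 columns of the 8-week group each matched another array of that group. Its column medians ran from 28.28 to 90.2. Scale was thus linear, with no centring.

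From these, log2 intensity minus each array's 75th percentile was computed over 43803 spots without flagged ones (5 to 62 per array), averaging spots of one probe. Between 49.1% and 66.4% of spots were well above background, and the number of arrays limits precision. Probes well above background on at least 3 of 4 arrays of a group were kept (26928 of 43603), the 10 actin probes among them. Group means of all 20 arrays were fitted with limma 3.58.1 (R 4.3.3), with two-sided p-values adjusted by Benjamini-Hochberg and a call below 0.05. Tested on simulated data for 4 weeks against control over 26928 probes, the fit recovered 61% of log2 changes of 1 and 88% of changes of 2, with 11 false calls.

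Names came from the files and the RefSeq table, for 2495 probes, and 41108 stayed unnamed. A gene is given by its kept probe of highest mean. Named genes are each actin and transgelin probe, up to 4 measured genes per list with the lowest adjusted p, a panel of muscle and reference genes, and the 5 genes nearest in level, and some of these are not reported here. At-least folds set the brighter group's mean against the dim group's, where each dim array counts at its own level or at the array's detection floor, whichever is higher. Coordinates are transcript positions, since no genome build is named in the files. The members and lists were chosen with earlier results of these data known. Alternatives were other scalings, background correction, filters, the authors' table, a replicate block, fewer groups, single scan days and each array left out, and, chosen after seeing the data, both muscle-rich controls left out.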

Additional observations from a re-analysis of the deposited data

Results flagged for a closer look

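In 13 of 235 groups of 4 arrays examined, over the actin probes and the named listed genes, a single array stood apart from the other 3 by Dixon's test. Chance flags about 1 in 20 such groups, and probes of the same message are not separate.

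For ACTA2, 2-week replicate 1 stood at 1.56, with the other 3 arrays at 0.08 to 0.24. Control replicate 3 was highest for D17403 probes A_04_P013116 (6.94, others 6.77 to 6.80) and A_04_P013118 (7.73, others 7.49 to 7.53). Among probes set beside ACT-5, 2-week replicate 1 had 3.28 on A_04_P012261 (others 2.87 to 2.93), 4-week replicate 1 had 1.05 on A_04_P016746 (others 0.45 to 0.49), and 8-week replicate 3 had -3.02 on A_04_P015241 (others -3.93 to -3.86).

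Replicate 4 of the 1-week group, the array of lowest signal, was low for HPRT1 (2.11, others 2.67 to 2.78) and for TGFB1 (-0.53, others 0.55 to 0.74). In the 4-week group replicate 1 had MYH7 at -4.17 (others -4.85 to -4.83) and PPIA at 6.35 (others 6.44 to 6.45) and replicate 3 had TTN at -5.88 (others -3.79 to -3.51). In the 8-week group replicate 4 had CALD1 at 5.52 (others 5.19 to 5.24) and replicate 1 had LUM at 5.12 (others 6.02 to 6.14).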

How the results depend on the processing

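Counts of called probes depended on the processing. With normexp background they were 44, 0, 28 and 35 at 1, 2, 4 and 8 weeks against control, and 13, 15 and 0 for 4 weeks minus 1 week, 8 minus 4 and 8 minus 1. With only the 2 groups compared they were 1424 at 1 week, 0 at 2 weeks, and 29, 249 and 0 for the 3 comparisons between times. With arrays of a single scan day they were 192, 62 and 1 between times. For 2 weeks against control that setting holds the same arrays as the 2 groups alone, so its 0 is the same fit. Where limma called 0, unadjusted p under 0.05 was reached by 543 to 3070 probes. Without a filter there were 74 at 2 weeks and 38 for 8 weeks minus 1 week, where median centring gave 9 and quantile normalization 35. Without the 2 muscle-rich control arrays there were 1479, 54, 775 and 963 against control.

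Leaving out each array gave 2422 to 4289 calls at 1 week, 31 to 204 at 2 weeks, 1309 to 3695 at 4 weeks and 2004 to 4703 at 8 weeks, and 190 to 746, 90 to 414 and 0 to 76 between times. The most calls at 4 and 8 weeks and between times came without 1-week replicate 4, the array of lowest signal, and the fewest at 1 and 2 weeks without control replicate 1, at 4 weeks without 4-week replicate 2, at 8 weeks without control replicate 2, for 4 weeks minus 1 week without 1-week replicate 2, and for 8 weeks minus 4 and minus 1 without 8-week replicate 2. The causes were not tested.

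Replicate numbers did not pair the arrays, since same-numbered arrays of different groups had a median correlation of deviations of 0.01 (40 pairs, lowest -0.33), against -0.01 for 120 other pairs. With the replicate number as a block 7 probes were called for 8 weeks minus 1 week, against 4, and the other counts stayed within 1.5 times. Slide as a random block was not run, since each group lay on its own slide.

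TAGLN and ACTA2 were lower at 4 weeks than in control under all alternatives run, by -2.02 to -1.27 and -2.05 to -1.30. D17403 at 2 weeks turned from 0.10 to -0.16 with normexp background. Of 68 calls of listed genes, 4 (MYH7 and TNNC2 at 4 and 8 weeks) held under every alternative. Low signal limits dim probes such as TPM2 and ACTA1.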

Other observations

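The difference of all kept probes from control varied with the share of G and C bases in the probe. Among the 5966 probes with 35% to 40%, the median difference was -0.12 at 1 week, -0.01 at 2 weeks, -0.04 at 4 weeks and -0.09 at 8 weeks. Among the 2298 probes with 55% to 60% it was 0.28, 0.14, 0.22 and 0.32. The TAGLN probe holds 51.7%, and the 557 kept probes within 2.5 percentage points of it had medians of 0.17, 0.12, 0.12 and 0.20, opposite in sign to its own differences of -0.15, -0.15, -1.65 and -0.32. The upstream ACT-5 probe holds 55%, with medians of 0.27, 0.14, 0.21 and 0.30 for probes of like composition.

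Macrophage markers were also lowest at 4 weeks against control, where 2.14% of all kept probes were called lower. All 4 measured genes fell there, with differences of -1.29 ± 0.31 for CD14, -2.05 ± 0.58 for MSR1, -0.82 ± 0.25 for TLR4 and -3.72 ± 0.92 for MMP12 (log2 scale, SE, limma adjusted p = 0.0134, 0.0355, 0.0482 and 0.0174). MSR1 was well above background on 2 of the 4-week arrays and MMP12 on 1, so these differences rest in part on dim signals. Of the 2 kept MSR1 probes, at -2.05 and -1.76, only 1 was called. Each of the 4 calls was lost without the 2 muscle-rich control arrays, and that of TLR4 under 19 of 29 alternatives.

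Summed levels of other marker lists correlated with TAGLN over the 20 arrays at Pearson's r = -0.56 for neutrophil, -0.60 for adipocyte, -0.29 for erythroid, -0.32 for osteoblast and -0.05 for osteoclast markers. In the same order, Spearman's rho was -0.64, -0.54, -0.62, -0.30 and -0.08, and r without the 2 arrays farthest from the median of the sum was -0.41, -0.48, -0.57, -0.32 and 0.01. The erythroid value thus depended on 2 arrays. For ACTA2, r was -0.33, -0.41, -0.20, -0.35 and -0.08, rho was -0.16, -0.32, -0.26, -0.40 and -0.16, and r without those 2 arrays was -0.09, -0.27, -0.41, -0.29 and 0.14.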
